A study of Mus musculus with 6 samples.

Results

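DNA repair genes encode the proteins that find and mend damaged bases and broken strands, and 44 of them were followed in sorted cells of the mouse renal medulla after kidney ischemia. They were taken by symbol from a fixed list, and all 44 symbols were found among the 37583 gene identifiers of the deposited tables. After a filter on low counts 42 of the 44 could be tested. Brca1 and Fancd2 did not pass it, with 23 and 9 reads summed over the sham libraries and 18 and 10 over the injured ones. The cells were EGFP-positive cells called intercalated cells in the labels, the acid- and base-secreting cells of the collecting duct. They came from 12 weeks old B1 VATPase EGFP transgenic mice, in which the B1 subunit gene of the vacuolar proton pump drives EGFP. Kidneys were taken 2 h after renal ischemia reperfusion injury (IRI), an injury by a period without blood flow followed by its return, or at the same time after sham surgery. Each group had 3 samples, each sample pooled 4 kidneys from 2 mice, and the cells were sorted in 2 rounds. The genotype entry of the labels also names the CX3CR1 gene as controlling EGFP, and the tissue entry says epididymis where the design text says renal medulla. Both groups carried the same transgene.

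Nucleotide excision repair removes bulky lesions: XPC or the DDB complex recognises them, the TFIIH helicases open the strands, and the nucleases ERCC1-XPF (Ercc4) and XPG (Ercc5) cut out the damaged stretch. Base excision repair removes single oxidised, deaminated or alkylated bases with glycosylases, an endonuclease, a gap-filling polymerase and a ligase, and mismatch repair corrects errors left by replication. Double-strand breaks are joined end to end through the Ku proteins or copied from the sister chromatid by homologous recombination, and translesion polymerases, the Fanconi proteins and Mgmt deal with lesions that block replication or are reversed directly. Reactive oxygen formed when blood returns to a kidney is a known source of oxidised bases and strand breaks.

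Read counts were compared between the groups with edgeR's quasi-likelihood test, and a gene was called at a Benjamini-Hochberg adjusted p under 0.05 over all 13881 genes tested. Of the 42 repair genes tested, 18 fell after IRI, 3 rose and 21 did not pass the test. Over all genes tested, 45.5% were called, 24.2% as higher and 21.2% as lower, so the repair genes were called about as often as genes in general, with 42.9% of them lower and 7.14% higher. Their median log2 fold change was -0.34, against 0.00 for all genes tested. In 25 of the 42 genes the 3 IRI values lay outside the range of the 3 sham values, 21 of them below and 4 above, where 56.4% of all genes were apart, 27.2% below and 29.2% above. The genes that rose were Ercc1, Ercc3 and Mgmt. The largest falls were those of Atm, Ung, Rad51c and Neil1, each more than 2-fold.

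**Figure D1:**
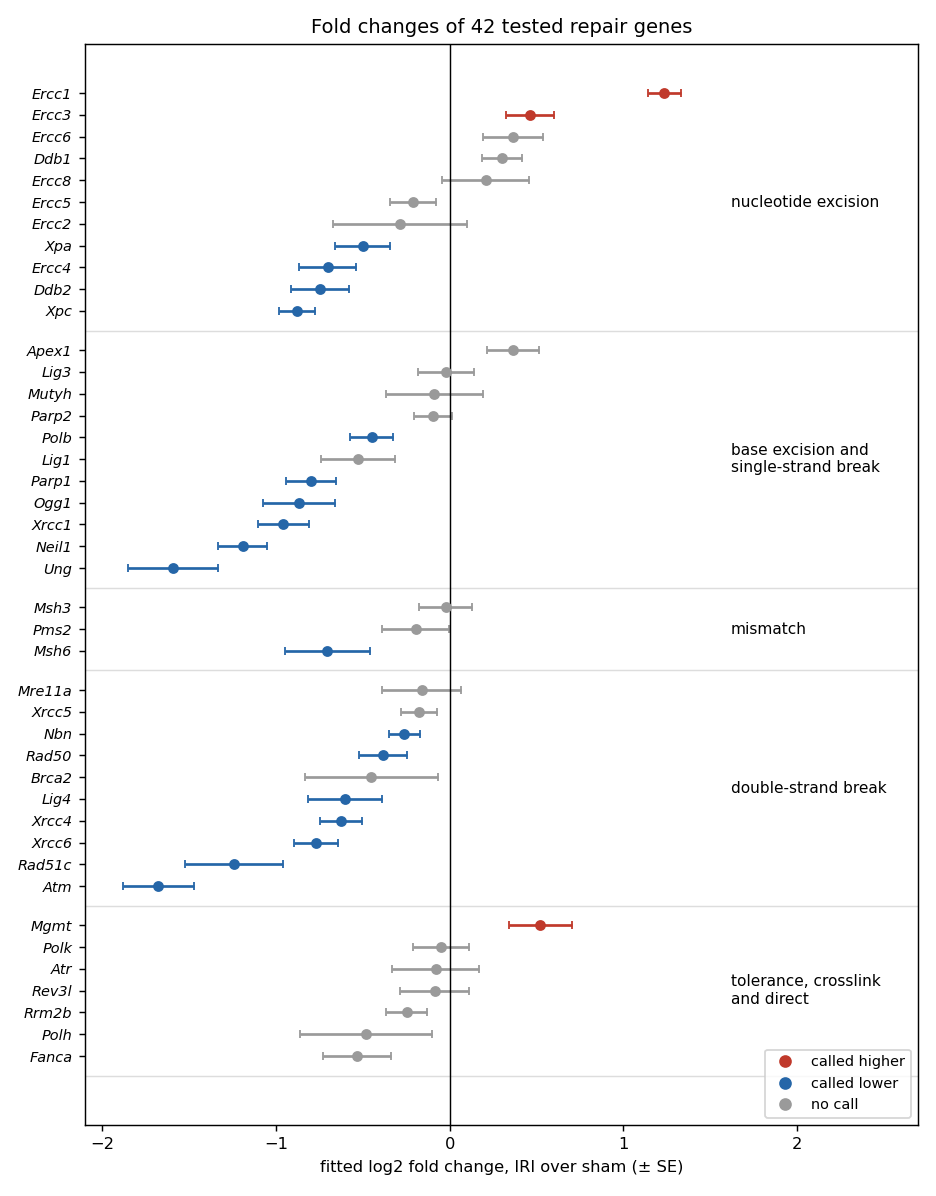
Log2 fold change of IRI over sham for the 42 tested repair genes, grouped by pathway, with bars of 1 standard error and colour for called genes. Ercc1 stands at 1.24 as the highest value and Atm at -1.68 as the lowest, and called genes of base excision, mismatch and double-strand break repair all lie below 0.

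Of the 21 calls, 13 held in all 14 alternative settings: Ercc1 as higher, and Xpc, Ddb2, Ercc4, Ogg1, Neil1, Ung, Parp1, Xrcc1, Atm, Rad51c, Xrcc4 and Xrcc6 as lower. The other 8, Ercc3, Mgmt, Xpa, Polb, Msh6, Rad50, Nbn and Lig4, were lost when single libraries were left out, as given with each gene. Scaling by library size alone shifted the median log2 fold change of all genes by -0.20 and upper-quartile scaling by -0.12. None of the listed repair genes changed sign under these or under DESeq2 size factors. The calls over all genes stood at 3364 higher and 2948 lower, against 2748 and 3789 under upper-quartile scaling and 2400 and 4337 under library size alone. Under both of these scalings Ercc1 was the 1 listed repair gene called higher, with 22 and 23 listed genes called lower. Nothing in the labels ties the replicates to separate experiments, and the p-values cover no more than the variation among these 6 pools. In bulk samples fewer cells of a type and less RNA per cell cannot be told apart.

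The libraries held 17421669 to 24245330 reads counted in genes. Markers of intercalated cells were abundant in both groups, with a summed level of 21238 to 27345 CPM, read counts scaled to the size of each library, in sham and 22863 to 27704 CPM in IRI. Of these 10 genes, all tested, none rose and 2 fell. They were Kit (adjusted p = 0.00414) and Atp6v1b1, the B1 subunit gene (adjusted p = 0.0427). The Atp6v1b1 call was lost without sham replicate 2 or 3 or IRI replicate 1 or 3. Markers of principal cells, the water- and sodium-handling neighbours in the collecting duct, summed to 12264 to 13671 CPM in sham and 6079 to 11831 in IRI, with Aqp2 at 9363 and 6578 CPM. Of 8 principal cell markers tested, none rose and 2 fell, Aqp3 and Hsd11b2. The Aqp3 call was lost without sham replicate 3 or IRI replicate 2. Among 15 macrophage and dendritic cell genes, 12 were tested and 4 rose, with sums of 70.4 to 295 CPM in sham and 233 to 334 in IRI, while Cx3cr1 and Emr1 were at or near 0. The largest of these rises was that of Cd68, from 0.903 ± 0.322 to 37.7 ± 14.2 CPM. Markers of the thick ascending limb summed to 1373 to 2242 CPM in sham and 1011 to 1586 in IRI, and 1 of 6 fell, Kcnj1. Proximal tubule markers summed to 5.27 to 9.19 CPM in sham and 3.35 to 8.99 in IRI, and 1 of 4 tested fell, Lrp2. The Lrp2 call was lost without sham replicate 1 or 3 or IRI replicate 1 or 2. Endothelial markers summed to 5.26 to 10.8 CPM in sham and 10.2 to 19.1 in IRI, with Flt1 called higher among 5 tested, and of fibroblast and pericyte markers Acta2 rose among 2 tested, with sums of 18.9 to 83.5 and 15.9 to 39.1 CPM. Lymphocyte markers summed to 1.14 to 48.5 CPM in sham and 2.69 to 25.8 in IRI, and neutrophil markers to at most 0.118 and 4.63. Markers of epididymis epithelium summed to 8.06 to 13.2 CPM in sham and 4.27 to 10.2 in IRI. The part of these other cells in the repair gene values was not tested. Libraries were made without marking strand, so reads from overlapping genes cannot be told apart. In the GENCODE M21 models, exons of 18 of the 44 repair genes overlap those of another gene, and these values are uncertain to that extent.

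The promoters of 5 genes are printed first, to set the sequence beside the values that follow: the gene that rose most, 3 of those that fell most, and Xrcc6, a called gene whose window holds an E2F motif. Each is the 250 bases before the annotated start, 5′ to 3′ on the gene's strand, from the RefSeq table of build GRCm38.p6, where 35 of the 44 genes matched. They are Ercc1 (chr7:19344821-19345070, plus strand), which rose, and 4 genes that fell: Ung (chr5:114130185-114130434, plus strand), Atm (chr9:53536672-53536921, minus strand), Xrcc6 (chr15:82016119-82016368, plus strand) and Rad51c (chr11:87404507-87404756, minus strand, the first of its 2 annotated starts). Capitals mark matches, on either strand, to the motifs named after the sequences.
Ercc1: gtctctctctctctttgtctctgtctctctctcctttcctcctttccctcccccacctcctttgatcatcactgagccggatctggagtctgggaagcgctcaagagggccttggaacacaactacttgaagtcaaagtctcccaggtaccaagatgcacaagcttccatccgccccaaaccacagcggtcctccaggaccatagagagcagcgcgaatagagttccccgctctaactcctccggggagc
Ung: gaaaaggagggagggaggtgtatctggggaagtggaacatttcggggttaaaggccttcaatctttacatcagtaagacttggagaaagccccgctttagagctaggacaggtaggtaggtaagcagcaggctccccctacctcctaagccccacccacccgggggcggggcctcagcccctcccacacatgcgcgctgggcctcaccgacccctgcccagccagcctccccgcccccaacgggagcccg
Atm: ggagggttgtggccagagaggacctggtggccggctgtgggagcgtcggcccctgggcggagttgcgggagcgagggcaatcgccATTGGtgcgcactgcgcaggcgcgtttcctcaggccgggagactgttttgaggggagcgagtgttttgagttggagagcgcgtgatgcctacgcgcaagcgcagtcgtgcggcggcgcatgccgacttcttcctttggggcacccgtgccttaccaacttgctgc
Xrcc6: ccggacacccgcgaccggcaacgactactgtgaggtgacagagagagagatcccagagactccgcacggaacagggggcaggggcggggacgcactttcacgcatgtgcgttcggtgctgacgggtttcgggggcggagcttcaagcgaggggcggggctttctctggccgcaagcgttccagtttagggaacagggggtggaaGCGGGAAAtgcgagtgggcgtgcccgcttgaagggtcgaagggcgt
Rad51c: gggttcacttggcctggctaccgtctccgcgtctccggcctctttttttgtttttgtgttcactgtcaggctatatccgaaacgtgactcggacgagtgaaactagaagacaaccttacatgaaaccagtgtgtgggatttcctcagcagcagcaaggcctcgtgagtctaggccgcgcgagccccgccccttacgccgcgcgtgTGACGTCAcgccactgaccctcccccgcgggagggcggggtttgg

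The capitals in Atm are a CCAAT box on the opposite strand, those in Xrcc6 an E2F motif (TTTCCCGC, opposite strand) and those in Rad51c a cyclic AMP response element (TGACGTCA). The window of the second Rad51c start held none of the motifs searched. No motif searched was found in the windows of Ercc1 and Ung. Both strands of each window were searched for 7 motifs, and none of the 7 contains another. CCAAT was in 16 of the 35 promoters, or 45.7%, against 37.5% of 27025 genes with a promoter in the table. It was in 6 of 13 with a called fall, 9 of 19 with no call and 0 of 2 with a called rise. CACGTG, the E-box, was in 7 promoters, or 20%, against 6.86% of all genes, and 1 of the 7, Parp1, was a called gene. TGACGTCA was found in Rad51c and Brca2, against 1.77% of all genes. TTTCCCGC was found in Xrcc6 and Brca2, against 1.03% of all genes, and the second E2F form TTTGGCGC in Msh3, against 0.485%. The NRF1 motif, GCGCA followed by TGCGC, was in Lig4 and Polh, against 0.877% of all genes. The AP-1 site TGACTCA was in none of the 35 and in 5.16% of all genes. A match is a stretch of letters and not a measured binding site.

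Levels between genes were compared per length, as the authors' RPKM, which are reads scaled by gene length and library size. The 42 genes tested had a median of 3.21 RPKM in sham and 2.35 in IRI, against 3.99 and 4.08 over all genes tested. Polb, the gap-filling polymerase of base excision repair, was highest at 86.2 ± 9.70 RPKM (SD, n = 3) in sham. Parp2 at 27.7 ± 2.60 and Nbn at 26.7 ± 0.802 came next and did not differ beyond their spread. Xrcc5 at 18.6 ± 1.55, Ddb1 at 17.5 ± 0.815 and Ercc1 at 16.3 ± 1.12 RPKM followed with overlapping spreads, as did Apex1 at 15.2 ± 2.00. Ercc1 moved up in the order: at 37.5 ± 1.47 RPKM after IRI it stood behind Polb alone, which was at 61.6 ± 6.74. Ddb1 at 21.0 ± 3.04 and Apex1 at 19.0 ± 2.39 RPKM were then also above Xrcc5 at 16.1 ± 0.423. At the lower end in sham were the kinase genes Atm (0.614 ± 0.0164 RPKM) and Atr (0.539 ± 0.0696), then Polh (0.373 ± 0.0387), Ercc2 (0.362 ± 0.0983) and Brca2 (0.189 ± 0.0432). Brca1 and Fancd2 were lower still, at 0.0436 and 0.0188 RPKM.

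**Figure D2:**
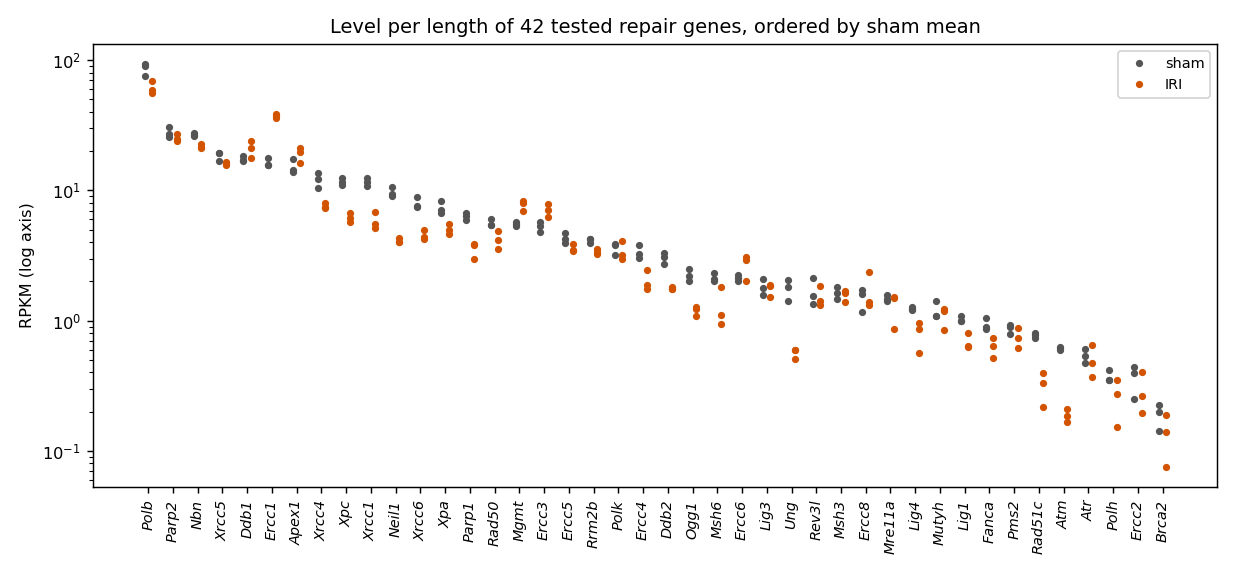
RPKM on a log axis of the 42 tested repair genes in each sham and IRI sample, ordered by the sham mean. Polb is highest at a sham mean of 86.2 RPKM and Brca2 lowest at 0.189, and Ercc1 in IRI lies above all other genes except Polb.

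Among the 11 nucleotide excision repair genes, the nuclease partner gene Ercc1 more than doubled while the damage sensors Xpc and Ddb2 fell. The called genes were Ercc1 and Ercc3 as higher and Xpc, Ddb2, Ercc4 and Xpa as lower, and 5 did not pass the test. The median log2 fold change of the 11 was -0.21. Ercc1, the non-catalytic partner that places the XPF nuclease at the lesion, stood at 40.9, 46.2 and 41.7 CPM in the sham samples and at 104, 102 and 97.8 after IRI. All 3 IRI samples were more than 50 CPM above every sham sample. This was a log2 fold change of 1.24 ± 0.09 (SE), or 2.36-fold (adjusted p = 2.84e-05). Cd3eap, an RNA polymerase I subunit gene whose exons overlap those of Ercc1, was at 16.4 ± 2.38 and 19.0 ± 2.54 CPM (SD, n = 3), with an adjusted p of 0.319. Ercc4 encodes XPF, the catalytic partner in the same nuclease, and moved the other way. It was at 26.2, 20.8 and 22.6 CPM in sham and 17.1, 12.4 and 13.2 after IRI, without overlap, a log2 fold change of -0.70 ± 0.16 (adjusted p = 0.00743).

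Xpc, which recognises distorted DNA across the genome, was at 62.9, 67.0 and 60.1 CPM in sham and 33.9, 37.4 and 32.1 after IRI. Every IRI sample was far below every sham sample, at a log2 fold change of -0.88 ± 0.10 or 1.84-fold lower (adjusted p = 0.000257). Ddb2, the lesion-binding subunit of the DDB complex, was at 8.41, 9.03 and 7.56 CPM in sham and 5.03, 4.95 and 4.93 in IRI. The IRI values lay close together below the sham range, at a log2 fold change of -0.75 ± 0.17 (adjusted p = 0.00653). Acp2, an acid phosphatase gene that shares exonic sequence with Ddb2, also fell, from 30.8 ± 2.49 to 21.5 ± 1.45 CPM. Ddb1, the partner of Ddb2 and an adaptor of cullin ubiquitin ligases, was the nucleotide excision gene with the highest RPKM in sham. Its values of 78.6, 72.9 and 72.5 CPM in sham and 104, 93.6 and 78.8 in IRI did not overlap, but the difference did not pass the test (log2 fold change 0.30 ± 0.12, adjusted p = 0.0601). It was called higher without IRI replicate 3 (adjusted p = 0.0154).

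Ercc3, the XPB helicase of TFIIH, was at 16.3, 15.1 and 13.8 CPM in sham and 22.8, 20.9 and 18.6 in IRI. The groups were apart by a narrow gap, and the rise was a log2 fold change of 0.46 ± 0.14 (adjusted p = 0.0222). Its call was lost under library size alone, under upper-quartile scaling, and without sham replicate 2 or 3 or IRI replicate 1 or 2, with an adjusted p of up to 0.125 without 1 library. Xpa, a scaffold that gathers the repair proteins at the opened lesion, fell from 13.7 ± 1.66 to 9.65 ± 0.986 CPM (log2 fold change -0.50 ± 0.16, adjusted p = 0.0290), and its overlapping neighbour Ncbp1 from 31.3 ± 3.23 to 23.3 ± 3.14. The Xpa call was lost without sham replicate 2 or 3 or IRI replicate 1 or 3, at an adjusted p of up to 0.102. Ercc5, the XPG nuclease, had a log2 fold change of -0.21 ± 0.13, called lower under library size alone (adjusted p = 0.0371), and Ercc2, the XPD helicase, one of -0.29 ± 0.38 at only 1.47 and 1.20 CPM. The transcription-coupled repair genes Ercc6 and Ercc8, mutated in Cockayne syndrome, had log2 fold changes of 0.37 ± 0.17 and 0.21 ± 0.25 with overlapping groups. Ercc6 was called higher without IRI replicate 2, whose 17.1 CPM was within the sham range, while the other two IRI samples were at 24.6 and 26.5.

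Of 18 other nucleotide excision genes, all tested, 1 rose and 9 fell, with a median log2 fold change of -0.20. Gtf2h1, the p62 subunit of TFIIH, was at 33.9, 32.2 and 29.5 CPM in sham and 55.1, 67.1 and 59.95 in IRI, a log2 fold change of 0.93 ± 0.11 (adjusted p = 0.0003). The 10 TFIIH genes went in both directions, with Ercc3 and Gtf2h1 higher and Gtf2h2, Gtf2h3, Gtf2h4 and Ccnh lower. Gtf2h3 was not called without sham replicate 1, and Ccnh was called only without sham replicate 1 among the fits on 5 libraries. Of the other falls, Cul4a and Rbx1 lost their calls without sham replicate 2 or 3 or IRI replicate 2, among other libraries. All 3 subunits of replication protein A, which coats single-stranded DNA in most repair pathways, fell together. This set and the TFIIH set were chosen after values were seen, and over all genes tested 21.2% fell and 24.2% rose. Rpa1 went from 47.5 ± 2.31 to 24.1 ± 0.701 CPM (log2 fold change -0.98 ± 0.10), Rpa2 from 15.6 ± 0.537 to 7.93 ± 2.20 and Rpa3 from 22.8 ± 3.91 to 10.5 ± 0.220, with adjusted p values of 0.000126, 0.00397 and 0.000498.

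In base excision and single-strand break repair 6 of 11 genes fell and none rose, with 5 not passing the test and a median log2 fold change of -0.53. The largest falls were those of Ung and Neil1, both glycosylases, which start the pathway. Ung, which removes uracil from DNA, was at 4.44, 3.46 and 5.00 CPM in sham and 1.48, 1.28 and 1.5 in IRI. The lowest sham sample was more than 2 times the highest IRI sample, at a log2 fold change of -1.59 ± 0.26, or 3.02-fold lower (adjusted p = 0.00128). Neil1, a glycosylase for oxidised pyrimidines, was at 18.3, 15.5 and 16.2 CPM in sham and 7.05, 7.61 and 7.2 in IRI. Its groups were as clearly apart, at -1.19 ± 0.14 or 2.29-fold lower (adjusted p = 0.000258). Ogg1, which removes 8-oxoguanine, fell from 5.31 ± 0.544 to 2.91 ± 0.234 CPM (log2 fold change -0.87 ± 0.21, adjusted p = 0.00870). Its overlapping neighbour Camk1, a kinase gene at a far higher level, fell too, from 263 ± 32.0 to 176 ± 17.5 CPM. Mutyh, which removes adenine opposite 8-oxoguanine, was at 2.43 ± 0.378 and 2.29 ± 0.435 CPM and did not pass the test (adjusted p = 0.819).

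Downstream of the glycosylases the scaffold Xrcc1 and the break sensor Parp1 fell, and the ligases and Parp2 were not called. Xrcc1 was at 22.9, 26.3 and 24.7 CPM in sham and 11.9, 14.9 and 11.2 in IRI. All IRI samples were below all sham samples, at a log2 fold change of -0.96 ± 0.15 or 1.94-fold lower (adjusted p = 0.000932). Parp1, which marks strand breaks with poly(ADP-ribose), fell from 24.0 ± 1.44 to 13.8 ± 1.92 CPM (log2 fold change -0.80 ± 0.14, adjusted p = 0.00207), while its relative Parp2 was at 48.6 ± 4.57 and 45.4 ± 2.75 CPM with overlapping groups (adjusted p = 0.498). Polb was at 90.01, 108 and 112 CPM in sham and 68.6, 73.0 and 85.6 in IRI. The highest IRI sample came within 5 CPM of the lowest sham sample, and the fall was a log2 fold change of -0.45 ± 0.12 (adjusted p = 0.0164). Without IRI replicate 1 Polb was not called (adjusted p = 0.0536).

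Apex1, the endonuclease that cuts at abasic sites, was at 22.2 ± 3.01 and 28.5 ± 3.82 CPM with overlapping groups (log2 fold change 0.36 ± 0.15, adjusted p = 0.0742). It was called higher without IRI replicate 1. The ligase genes Lig1 and Lig3 had log2 fold changes of -0.53 ± 0.21 (adjusted p = 0.0691) and -0.02 ± 0.16 (adjusted p = 0.931). All 3 IRI values of Lig1, 3.05, 3.99 and 3.14 CPM, were below its sham values of 4.71, 4.77 and 5.22, and it was called lower under upper-quartile scaling (adjusted p = 0.0305) and library size alone (adjusted p = 0.0181).

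Of 15 other genes of these pathways 13 were tested, of which 2 rose and 3 fell, with a median log2 fold change of -0.08. Nthl1, a glycosylase for oxidised pyrimidines like Neil1, fell from 8.43 ± 1.12 to 2.62 ± 0.636 CPM (log2 fold change -1.68 ± 0.23, adjusted p = 0.000544). Tdp1, which clears trapped topoisomerase from strand ends, fell from 8.72 ± 0.901 to 4.2 ± 0.782 CPM (adjusted p = 0.003). Mbd4, which acts on deaminated methylcytosine and was named after its values were seen, fell from 3.14 ± 0.750 to 0.906 ± 0.261 CPM (adjusted p = 0.00291). Of 9 tested glycosylase genes, a set chosen after values were seen, Nthl1, Mbd4 and the 3 members Ung, Neil1 and Ogg1 fell. Mutyh, Mpg, Tdg and Smug1 did not pass the test, and 21.2% of all genes tested fell. Aptx, which removes stalled ligation products, rose from 35.6 ± 3.04 to 49.5 ± 1.83 CPM (log2 fold change 0.48 ± 0.11, adjusted p = 0.00606), a call lost under library size alone. Parp3, also named after its values were seen, rose from 0.684 ± 0.468 to 3.13 ± 0.831 CPM (adjusted p = 0.00495), and Rrp9, with overlapping exons, was at 24.99 ± 3.56 and 34.8 ± 7.11 CPM.

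Mismatch repair was represented by 3 genes, of which Msh6 fell and Msh3 and Pms2 did not pass the test. Their median log2 fold change was -0.19. Msh6, of the complex that binds single mismatches, was at 9.74, 8.40 and 8.86 CPM in sham and 7.68, 4.77 and 4.11 in IRI. IRI replicate 1 lay just under the sham range and the other two well below it, at a log2 fold change of -0.70 ± 0.24 (adjusted p = 0.0416). The call was lost without any 1 sham replicate and without IRI replicate 2 or 3, at an adjusted p of up to 0.121. Msh3, of the complex that binds larger loops, was at 12.0 ± 1.32 and 11.8 ± 1.05 CPM (adjusted p = 0.919), and Pms2, of the endonuclease that follows, at 6.74 ± 0.550 and 5.89 ± 0.972 (adjusted p = 0.443).

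Among other mismatch repair genes, Pms1 and Mlh3 fell, from 7.96 ± 0.337 to 3.09 ± 1.34 and from 8.05 ± 1.96 to 3.16 ± 1.16 CPM. Their log2 fold changes were -1.36 ± 0.32 and -1.35 ± 0.30, with adjusted p values of 0.00769 and 0.00601.

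**Figure D3:**
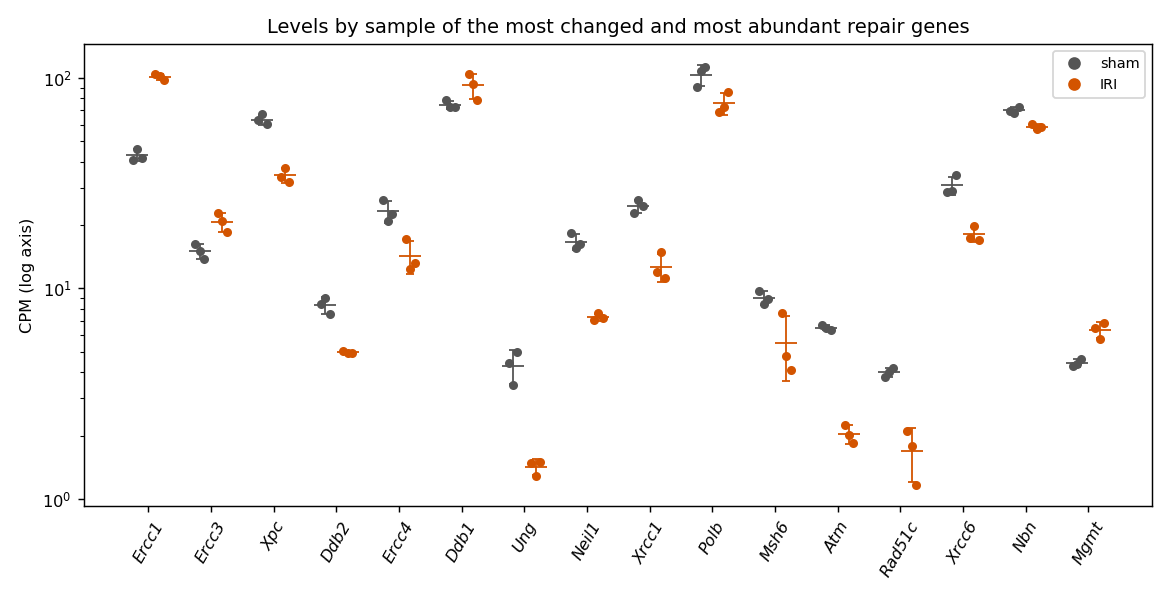
CPM in each of the 3 sham and 3 IRI samples for the repair genes described sample by sample, with the group mean as a line. Ercc1 lies between 97.8 and 104 CPM in IRI and at or below 46.2 in sham, while Atm lies at or below 2.25 in IRI and at or above 6.36 in sham.

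In double-strand break repair 7 of the 10 genes tested fell and none rose. Their median log2 fold change was -0.53. The number called lower was 6 without IRI replicate 1 and 4 without any other single library. Atm, the kinase that signals double-strand breaks, was at 6.68, 6.50 and 6.36 CPM in sham and 2.25, 2.02 and 1.84 in IRI. The samples of each group were close together and the groups far apart, at a log2 fold change of -1.68 ± 0.20, or 3.20-fold lower (adjusted p = 0.000286). Atr, the related kinase that responds to stalled replication, was at 5.15, 3.97 and 4.51 CPM in sham and 5.57, 4.08 and 3.24 in IRI, with full overlap (adjusted p = 0.818). Atr is counted in the damage tolerance group and not among these double-strand break genes. Whether the changes of the 2 kinase genes differ from each other was not tested.

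End joining begins with the Ku dimer and ends with ligase IV. Xrcc6, the Ku70 gene, was at 28.8, 29.2 and 34.5 CPM in sham and 17.3, 19.8 and 17.1 in IRI. The groups did not overlap, at a log2 fold change of -0.77 ± 0.13 (adjusted p = 0.00146). Xrcc5, the gene of its partner Ku80, was at 42.2, 48.7 and 49.1 CPM in sham and 39.8, 42.6 and 41.4 in IRI, overlapping by 1 sample (log2 fold change -0.18 ± 0.11, adjusted p = 0.203). It was called lower under upper-quartile scaling (adjusted p = 0.0432) and library size alone (adjusted p = 0.0153). Xrcc4, the scaffold of ligase IV, fell from 50.05 ± 6.32 to 32.4 ± 1.67 CPM (log2 fold change -0.63 ± 0.12, adjusted p = 0.00306), and Tmem167, whose exons overlap it, was at 99.4 ± 5.89 and 99.1 ± 6.03. Lig4, the ligase, was at 8.76, 8.94 and 8.65 CPM in sham and 6.92, 4.12 and 6.33 in IRI, a wider spread after injury (log2 fold change -0.60 ± 0.21, adjusted p = 0.0460). Its call was lost without any 1 sham replicate and without IRI replicate 2 or 3, at an adjusted p of up to 0.105.

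The 3 genes of the MRN complex, which holds and trims broken ends, had small differences. Rad50 was at 28.6, 32.0 and 29.2 CPM in sham and 26.4, 22.9 and 19.6 in IRI (log2 fold change -0.38 ± 0.14, adjusted p = 0.0459). Nbn, the most abundant of this pathway per length, was at 69.8, 68.0 and 72.8 CPM in sham and 60.5, 57.0 and 58.3 in IRI (log2 fold change -0.26 ± 0.09, adjusted p = 0.0395). Both were apart from sham by a narrow margin. The Nbn call was lost without the filter on low counts and whichever 1 library was left out, at adjusted p values of 0.0515 to 0.108, and the Rad50 call without any 1 sham replicate and without IRI replicate 2 or 3, at up to 0.138. Mre11a, the nuclease, was at 8.71 ± 0.457 and 7.79 ± 2.23 CPM and did not pass the test (adjusted p = 0.596).

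For homologous recombination, Rad51c, which acts in strand exchange at resected ends, was at 3.81, 4.01 and 4.19 CPM in sham and 2.11, 1.79 and 1.16 in IRI. Every IRI sample was below every sham sample, at a log2 fold change of -1.24 ± 0.28 or 2.36-fold lower (adjusted p = 0.00667). Brca2, a recombination mediator, was at 2.00 ± 0.460 and 1.45 ± 0.602 CPM with overlapping groups (adjusted p = 0.367). Brca1 was at 0.364 ± 0.267 and 0.281 ± 0.166 CPM, too low to test.

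Of 33 other double-strand break genes, 29 rows were tested, of which 1 rose and 11 fell, with a median log2 fold change of -0.53. Rad51l3, a recombination gene now named Rad51d, was at 30.8, 21.6 and 25.1 CPM in sham and 12.0, 8.11 and 9.42 in IRI, a log2 fold change of -1.39 ± 0.19 (adjusted p = 0.000513). The recombination genes Xrcc2 and Xrcc3 fell with Rad51c and Rad51l3, though Xrcc2 and Xrcc3 each lost their call without 4 of the 6 libraries. Prkdc, the kinase recruited by Ku, fell from 7.64 ± 0.644 to 3.49 ± 0.0767 CPM (log2 fold change -1.13 ± 0.18, adjusted p = 0.00115). With Prkdc, 6 of the 9 end-joining genes fell, a set chosen after values were seen, against 21.2% of all genes tested. Of the 6, Nhej1 lost its call whichever 1 library was left out and Poll without sham replicate 2 or 3 or IRI replicate 2. H2afx, the histone variant that Atm phosphorylates at breaks and which was named after its values were seen, fell from 34.1 ± 5.03 to 19.9 ± 2.83 CPM (adjusted p = 0.00371). Rad52, a strand-annealing protein, was the gene that rose, from 12.4 ± 1.26 to 17.9 ± 2.17 CPM (log2 fold change 0.54 ± 0.15, adjusted p = 0.0176). Its call was lost under library size alone and without sham replicate 1 or 3 or IRI replicate 2.

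In the remaining group, of damage tolerance, crosslink and direct repair, 1 of 7 tested genes rose, none fell, and the median log2 fold change was -0.09. Mgmt, which takes alkyl groups off guanine and was the most abundant of the group per length, was at 4.28, 4.39 and 4.62 CPM in sham and 6.51, 5.73 and 6.86 in IRI. The groups did not overlap, at a log2 fold change of 0.52 ± 0.18 (adjusted p = 0.0427). The call was lost whichever 1 library was left out, at adjusted p values of 0.0591 to 0.121, and also under DESeq2, library size alone, upper-quartile scaling and no filter. The translesion polymerase genes Polk, Rev3l and Polh had log2 fold changes of -0.05 ± 0.16, -0.09 ± 0.20 and -0.48 ± 0.38, none past the test. Fanca, of the core complex that answers interstrand crosslinks, was at 8.72, 7.42 and 7.29 CPM in sham and 5.39, 4.45 and 6.38 in IRI, all IRI values below sham (log2 fold change -0.53 ± 0.20, adjusted p = 0.0523). It was called lower without IRI replicate 3 (adjusted p = 0.0327), under each of the 3 other scalings, with limma-voom and with the stricter filter. Rrm2b, a ribonucleotide reductase subunit used outside S phase, was at 21.2 ± 0.832 and 17.9 ± 0.927 CPM (adjusted p = 0.117), and was called lower under upper-quartile scaling and library size alone. Fancd2 was at 0.131 ± 0.0245 and 0.153 ± 0.101 CPM and was not tested.

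Of 35 other genes of that group 33 were tested, of which 4 rose and 15 fell, with a median log2 fold change of -0.25. Rad18, the ubiquitin ligase that marks PCNA at stalled forks, was at 1.57, 1.39 and 1.36 CPM in sham and 7.5, 6.55 and 8.55 in IRI. The lowest IRI sample was over 4 times the highest sham sample, and the 5.20-fold rise was the largest among all the repair genes tested (log2 fold change 2.38 ± 0.22, adjusted p = 7.11e-05). Rrm2, the S-phase ribonucleotide reductase subunit, rose from 14.2 ± 2.13 to 32.9 ± 9.38 CPM (log2 fold change 1.21 ± 0.21, adjusted p = 0.00186), while its partner Rrm1 fell from 21.0 ± 0.412 to 11.7 ± 1.97 (adjusted p = 0.00201). Dut, which keeps uracil out of DNA by breaking down dUTP, fell from 58.3 ± 2.72 to 21.2 ± 5.94 CPM (log2 fold change -1.46 ± 0.19, adjusted p = 0.000382). Rad9 and Mad2l2 also rose, and both calls were lost under library size alone.

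Fancg, a subunit of the Fanconi core complex, was at 12.8, 11.1 and 11.3 CPM in sham and 2.11, 2.29 and 3.28 in IRI, a log2 fold change of -2.20 ± 0.21 (adjusted p = 9.32e-05). Of 9 Fanconi core and monoubiquitination genes, a set chosen after values were seen, 7 fell and none rose. Fanca was among the other 2. Over all genes tested 21.2% fell and 24.2% rose. Without sham replicate 2 the calls of Fancb, Fancl and Fancm were lost, and those of Fancb and Fancl also without sham replicate 3 or IRI replicate 2. Chek2, the checkpoint kinase activated by Atm, was named after its values were seen. It was at 5.11, 5.57 and 4.62 CPM in sham and 0.225, 0.229 and 0.435 in IRI. This was the largest fall of any repair gene tested, 17.0-fold, at a log2 fold change of -4.09 ± 0.34 (adjusted p = 4.21e-05). Chek1, the kinase activated by Atr, was at 1.40 ± 0.132 and 1.33 ± 0.649 CPM (adjusted p = 0.907).

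**Figure D4:**
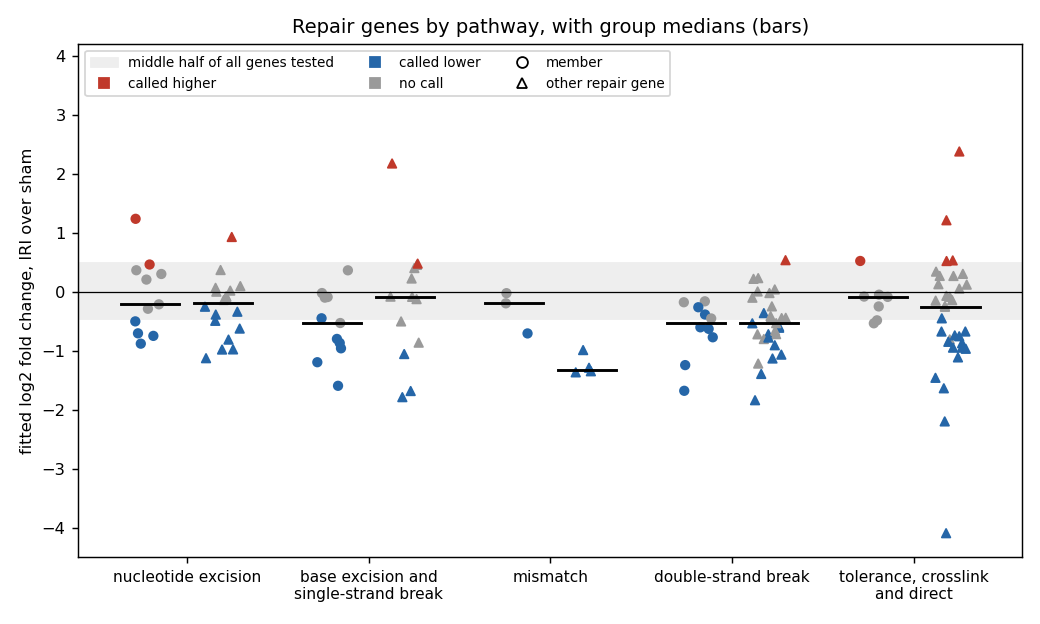
Log2 fold change of IRI over sham for tested repair genes by pathway, with listed genes as circles and other repair genes as triangles. Bars mark group medians, colour marks called genes, and a grey band the interquartile range of all 13881 genes tested. Falling genes outnumber rising ones in every pathway except the listed genes of damage tolerance, where 1 rose and none fell.

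Set side by side, the genes that rose were 2 of 11 in nucleotide excision repair and none of 11, 3 and 10 in base excision, mismatch and double-strand break repair, where 24.2% of all genes tested rose. The 2 became 1 under upper-quartile scaling and library size alone and without sham replicate 2 or 3 or IRI replicate 1. Genes that fell were 4 of 11, 6 of 11, 1 of 3 and 7 of 10, against 21.2% of all genes tested. Among these falls, the calls of Xpa, Msh6, Rad50, Nbn and Lig4 were lost in most fits without 1 library, and that of Polb without IRI replicate 1. The summed level of the nucleotide excision genes was 284 to 295 CPM in sham and 310.04 to 353 in IRI, the summed base excision genes 262 to 279 and 195 to 213, and the summed double-strand break genes 242 to 273 and 184 to 197. The first sum was above the sham range after IRI, with Ercc1 and Ddb1 adding most to it, and the other 2 sums were below. Ercc1 alone, at 40.9 to 46.2 CPM in sham and 97.8 to 104 in IRI, rose by more than the first sum did. The first sum thus does not show a rise across the pathway, whose median log2 fold change was -0.21. Ddb1 was not called. The sums given here are under the main scaling. Scaling by library size alone shifted the median log2 fold change of all genes by -0.20. With reads divided by library size alone the sham and IRI ranges of the first sum overlap, so its rise depends on the scaling. For mismatch repair the sums overlapped, at 25.2 to 30.3 and 19.7 to 27.1 CPM. The groupings are counts of few genes, and the difference between pathways was not tested. Over the 97 other repair genes tested, 8 rose and 42 fell, with a median log2 fold change of -0.44.

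Genes of cycling cells and targets of p53, which share members and regulators with repair in many tissues, are given for comparison. Of 15 cycling-cell genes 9 were tested, of which none rose and Tyms and Mcm5 fell. Their summed level was 123 to 133 CPM in sham and 89.8 to 114 in IRI. Mki67 and Top2a were under 1 CPM in all samples. Tyms, thymidylate synthase, fell from 37.7 ± 0.905 to 14.6 ± 1.37 CPM. The Mcm5 call was lost without sham replicate 1 or 3 or IRI replicate 2 or 3. Of 18 genes of the p53 list outside repair, made up of Trp53 itself and its targets, 12 rose and 2 fell, with a median log2 fold change of 1.07, and Cdkn1a, which arrests the cell cycle, rose from 40.3 ± 5.88 to 807 ± 304 CPM. Over all genes tested 24.2% rose and 21.2% fell. The part of these cycling-cell and p53 genes in the repair gene values was not tested.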

How the data were processed

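RNA of sorted EGFP-positive cells was sequenced in 3 sham and 3 IRI samples, grouped by their labels. The deposited counts are unnormalized whole reads for each gene. The deposited RPKM table also gives gene symbols and lengths, per the file headers, and its RPKM equals the count divided by gene length and effective library size, so it is not independent of the counts. The submitters' processing notes name STAR, HTSeq, edgeR and build mm9. Their versions and roles are not given in the sources used. Of all reads, 49.1% to 50.7% were in genes. The 5 entries naming no gene were left out: 39.9% to 42.4% of reads were not unique, 6.45% to 7.81% in no feature and 1.58% to 1.73% ambiguous.

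The test was edgeR 4.0.16 (R 4.3.3): filterByExpr (13881 genes), TMM scaling, a robust quasi-likelihood fit on the group, and Benjamini-Hochberg adjusted p under 0.05 over all genes tested. Standard errors came from the F statistic, and the biological coefficient of variation was 19%. CPM used TMM-scaled library sizes, and its SD is over 3 samples. All 6 libraries were kept as separate samples: chi-square divided by degrees of freedom was 18.3 to 50.7 for pairs within a group and 166 to 242 for pairs across groups. The steps were tested on simulated data.

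The members, the lists of other repair genes and markers, and the tests were chosen with earlier results of these data known. The rule gave sample values for up to 3 called members in each direction per pathway with the largest change and the most abundant member, and named up to 2 other repair genes in each direction, where mean log2 CPM reached 2. Values of further members, and complexes counted in the text, were chosen after values were seen, as were other repair genes outside the rule. Of the 106 other repair genes, Rad51l1, Rad51l3 and Rad9 carry older symbols, and Rad54b has 2 identifiers. Uvssa was not analysed here, and some genes of these lists are not reported here by name. Overlapping exons were taken by name from GENCODE M21 on GRCm38, another build than the counts, so no gene coordinates of the counts are printed. Alternatives were 3 scalings, DESeq2 1.42.0, limma-voom (limma 3.58.1), no filter on low counts, a stricter filter (at least 1 CPM in 3 samples and 50 reads in all), a replicate block and leaving out each library.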

Additional observations from a re-analysis of the deposited data

How the results depend on the processing

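No result changed direction among called values, in any of the 14 settings. Under upper-quartile scaling and library size alone, respectively, the listed repair genes called higher were 1 and 1 (3 as reported), 1 and 1 in nucleotide excision repair, and 0 and 0 in the damage tolerance group, where 2 and 2 were called lower. Median log2 fold changes were then -0.46 and -0.53 over all listed genes, -0.65 and -0.73 in base excision repair and -0.21 and -0.29 in the damage tolerance group. They were -0.42 in nucleotide excision repair and -0.72 in double-strand break repair under library size alone. The other double-strand break genes called lower were 17 and 17. Under library size alone, the other genes called higher were 1 in base excision, 0 in double-strand break repair and 2 in damage tolerance. In the damage tolerance group, DESeq2, no filter and the replicate block called 0 genes higher, and DESeq2 size factors, limma-voom and the stricter filter called 1 lower. Leaving out 1 library gave 1 to 3 listed genes higher and 13 to 15 lower; by pathway, 1 to 3, 0 to 1, 0 and 0 higher and 3 to 4, 5 to 6, 0 to 1 and 4 to 6 lower for nucleotide excision, base excision, mismatch and double-strand break repair, and 0 higher and 0 to 1 lower for damage tolerance. For other genes it gave 0 to 1 higher and 5 to 12 lower in double-strand break repair. Base excision medians ranged from -0.68 to -0.45 and damage tolerance medians from -0.227 to -0.0398.

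Deviations of samples with the same replicate number correlated at 0.177, 0.0884 and 0.175, so the numbers were not taken as pairs, although each library correlated best with its own number. With the replicate number as a block, 3368 genes were called higher and 3095 lower, and 3 and 17 of the listed genes. Ddb1 was then called higher, and Nbn and Mgmt were not called. Brca1 and Fancd2 were too low to be tested at this depth.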
